A study of Mus musculus with 12 samples.

Results

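The genes described here are the 48 protein-coding genes of the tables whose symbols begin with Psma, Psmb, Psmc, Psmd, Psme, Psmf or Psmg, that is, the subunits of the proteasome with its activators, inhibitor and assembly chaperones, out of 15344 genes in all. Quadriceps RNA of 12 C57BL/6 mice was sequenced at an age of 6 months, with 4 animals in each of 3 groups. The libraries labelled WT came from wild-type mice given no treatment. Those labelled KO came from GAA Knock-out mice, a model of Pompe disease that lacks acid alpha-glucosidase, the lysosomal enzyme that degrades glycogen. These mice were injected with PBS at 2 months of age, 4 months before harvest. Those labelled AAV came from the same knock-out strain given AAV2/8-LSPhGAApA in the tail vein at 2 months of age, with a dose of 2e12 vg/kg and 4 months until harvest. This vector carries human GAA under a liver-specific promoter, so muscle receives the enzyme from the blood. The methods name males for the injected mice, and each label names 1 animal. The sample descriptions carry the code G7 in WT, G6 in KO and G5 in AAV. What these codes stand for is not stated, and they cannot be told apart from the groups. The labels do not say more of how the animals were kept, so p-values measure the spread between these animals.

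The proteasome is the main protease of the cytosol and nucleus and degrades proteins that carry ubiquitin chains. Its core particle is a barrel of alpha rings, which gate the entrance, and beta rings, which hold the cutting sites of Psmb5, Psmb6 and Psmb7. In immune cells and after interferon these are replaced by the inducible subunits Psmb8, Psmb9 and Psmb10. The regulatory particle has a base with a ring of ATPases that unfolds substrates and a lid that removes ubiquitin. In skeletal muscle the proteasome carries much of the breakdown of contractile proteins, and it is best known there for its part in muscle wasting.

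By role, the members were 7 alpha ring subunits, 7 beta ring subunits, 3 inducible catalytic subunits, 6 base ATPases, 11 further base and lid subunits, 3 chaperones of the regulatory particle, 4 chaperones of the core particle, 4 activators and 1 inhibitor. The symbols took in 2 more genes, Psmc3ip, a recombination factor of meiosis that is no proteasome protein, and Psme2b-ps, a near-identical copy of Psme2. All 48 passed the minimum value of 10 in at least 1 library of each comparison. Values below are normalised reads, that is, reads per gene divided by 1 size factor per library. Exon length counts each annotated exon base of a gene once, over all its transcripts. It can exceed the length of the transcripts present, so ratios per kb between genes depend on it. Per kb of exon, averaged over the 12 libraries, the members spanned from 3794 for Psmc5, 3393 for Psmc3 and 3242 for Psma6 at the top to 32.0 for Psmb8, 28.8 for Psmc3ip and 15.8 for Psmb9 at the bottom.

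Some facts of the libraries touch every value. Total reads lay between 22122233 and 47379737. Markers of muscle fibres were present in all libraries, with a summed level of 9 genes between 3977355 and 6694421 normalised reads. The transcript of Gaa, the targeted gene, did not follow the labels. It was at 343, 14640.2, 324 and 460.3 in WT animals 1 to 4, at 12151, 13074, 11936 and 12895 in KO animals 1 to 4 and at 947, 587, 499.6 and 9854 in AAV animals 1 to 4, so that it was high in every library labelled KO and also in WT animal 2 and AAV animal 4. These reads are counted over the whole gene, and whether the targeted allele still gives transcript was not tested, so the level of Gaa does not settle which animals lack the enzyme. Groups are those of the labels throughout. WT animal 3 stood apart for the proteasome genes. It was the lowest of its group for 34 of the 48 members, and its median member lay at -0.15 relative to the mean of the 12 libraries on the log2 scale, where the other WT libraries lay at 0.12 to 0.28. The libraries labelled KO were close to each other, with a median within-group SD of 0.09 on the log2 scale over the members, where it was 0.29 in WT and 0.19 in AAV. Over all genes the order was the same, with medians of 0.19 in KO, 0.37 in WT and 0.33 in AAV.

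The stretches before the start sites of 4 members are shown because these genes carried calls in each direction below. Psmb4, Psmg4 and Psmb6 were called lower in KO than in WT and higher in AAV than in KO, whereas Psmb5 fell from KO to AAV. Each stretch holds the 120 bases before the RefSeq start, 5′ to 3′ on the gene's strand, from GRCm38.p6. They lie at chr3:94886959-94887078 (minus strand) for Psmb4, chr13:34162844-34162963 (plus strand) for Psmg4, chr11:70525237-70525356 (plus strand) for Psmb6 and chr14:54617996-54618115 (minus strand) for Psmb5. Capitals mark TGACNNNGC, the core of the antioxidant response element, a site bound by Nfe2l1 and Nfe2l2.
Psmb4: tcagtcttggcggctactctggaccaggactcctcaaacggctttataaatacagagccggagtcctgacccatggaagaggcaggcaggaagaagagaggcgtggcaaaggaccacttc
Psmg4: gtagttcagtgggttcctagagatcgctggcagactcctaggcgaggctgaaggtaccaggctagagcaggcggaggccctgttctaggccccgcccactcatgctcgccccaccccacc
Psmb6: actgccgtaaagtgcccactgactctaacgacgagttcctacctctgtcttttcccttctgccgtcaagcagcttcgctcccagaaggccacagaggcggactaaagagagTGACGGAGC
Psmb5: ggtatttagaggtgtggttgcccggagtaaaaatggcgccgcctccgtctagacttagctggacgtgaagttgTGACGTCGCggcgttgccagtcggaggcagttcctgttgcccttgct
The motif ended directly before the start of Psmb6 and began 47 bases before that of Psmb5, and these letters were not in the window of Psmb4 or Psmg4. RefSeq windows of 250 bases before to 50 after the start were found for 41 of the 48 members, as 44 windows. On either strand, TGACNNNGC was in 6 of the 44 (13.6%) and in 12.4% of all 32851 windows. The other 4 members with it were Psmc6, Psmd9, Psmd12 and Psme4. CCAAT, the box bound by NF-Y, was in 14 of the 44 (31.8%) and in 37.4% of all windows. The heat shock element was in 0 of the 44 and in 0.603% of all windows. In the member windows, 0 matches of one motif overlapped a match of another, and a match is a match of letters only.

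The first comparison asks how proteasome transcripts differ between Pompe and wild-type muscle. In the libraries labelled KO, 8 of the 48 members passed an adjusted p of 0.05 (limma, Benjamini-Hochberg over all genes tested), or 16.7%, and all 8 were lower. Over all genes tested the same rule called 27.6%, with 15.3% lower and 12.3% higher. The share of members that fell was thus near that of all genes, while 0 members rose by limma, DESeq2 or edgeR and 1, Psmb5, was higher at an unadjusted p under 0.05. The fallen genes were Psma7, Psmb4 and Psmb6 of the core, Psmb10 of the inducible subunits, the ATPase Psmc3, the activator Psme2, and the chaperones Psmd5 and Psmg4. In tissue RNA, fewer cells of a type and less RNA per cell cannot be told apart. The log2 fold change was below 0 for 36 of the 48 members and for 48.3% of all genes tested, and its median was -0.21 over the members and 0.02 over all genes. With the gene length trend removed these medians were -0.0439 and 0.02. Called members that changed by 1 or more on the log2 scale numbered 1, Psmg4, where 13.9% of all genes met both rules. The 2 groups did not overlap for 8 members (16.7%), all of them lower in KO, and for 28.3% of all genes.

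In the second comparison, of knock-out muscle with and without the vector, 15 of the 48 members were called (31.25%), 11 with more and 4 with less transcript in AAV. Over all genes the rule called 26.3%, with 12.8% higher and 13.4% lower. The members called higher were Psma4, Psma7, Psmb4, Psmb6, Psmb10, Psmc1, Psmd11, Psmd13, Psmg3, Psmg4 and Psme2b-ps, and those called lower were Psmb5, Psmc6, Psmd6 and Psme4. The median log2 fold change was 0.12 over the members and 0.04 over all genes. With the gene length trend removed these medians were 0.06 and 0.03. Called members that changed by 1 or more on the log2 scale were 2, Psmg4 and Psme2b-ps, where 8.98% of all genes met both rules. The groups did not overlap for 22 members (45.8%), 15 higher and 7 lower in AAV, and for 30.6% of all genes. Both comparisons share the 4 libraries labelled KO, so their values are given side by side and no relation between them is read.

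**Figure D1:**
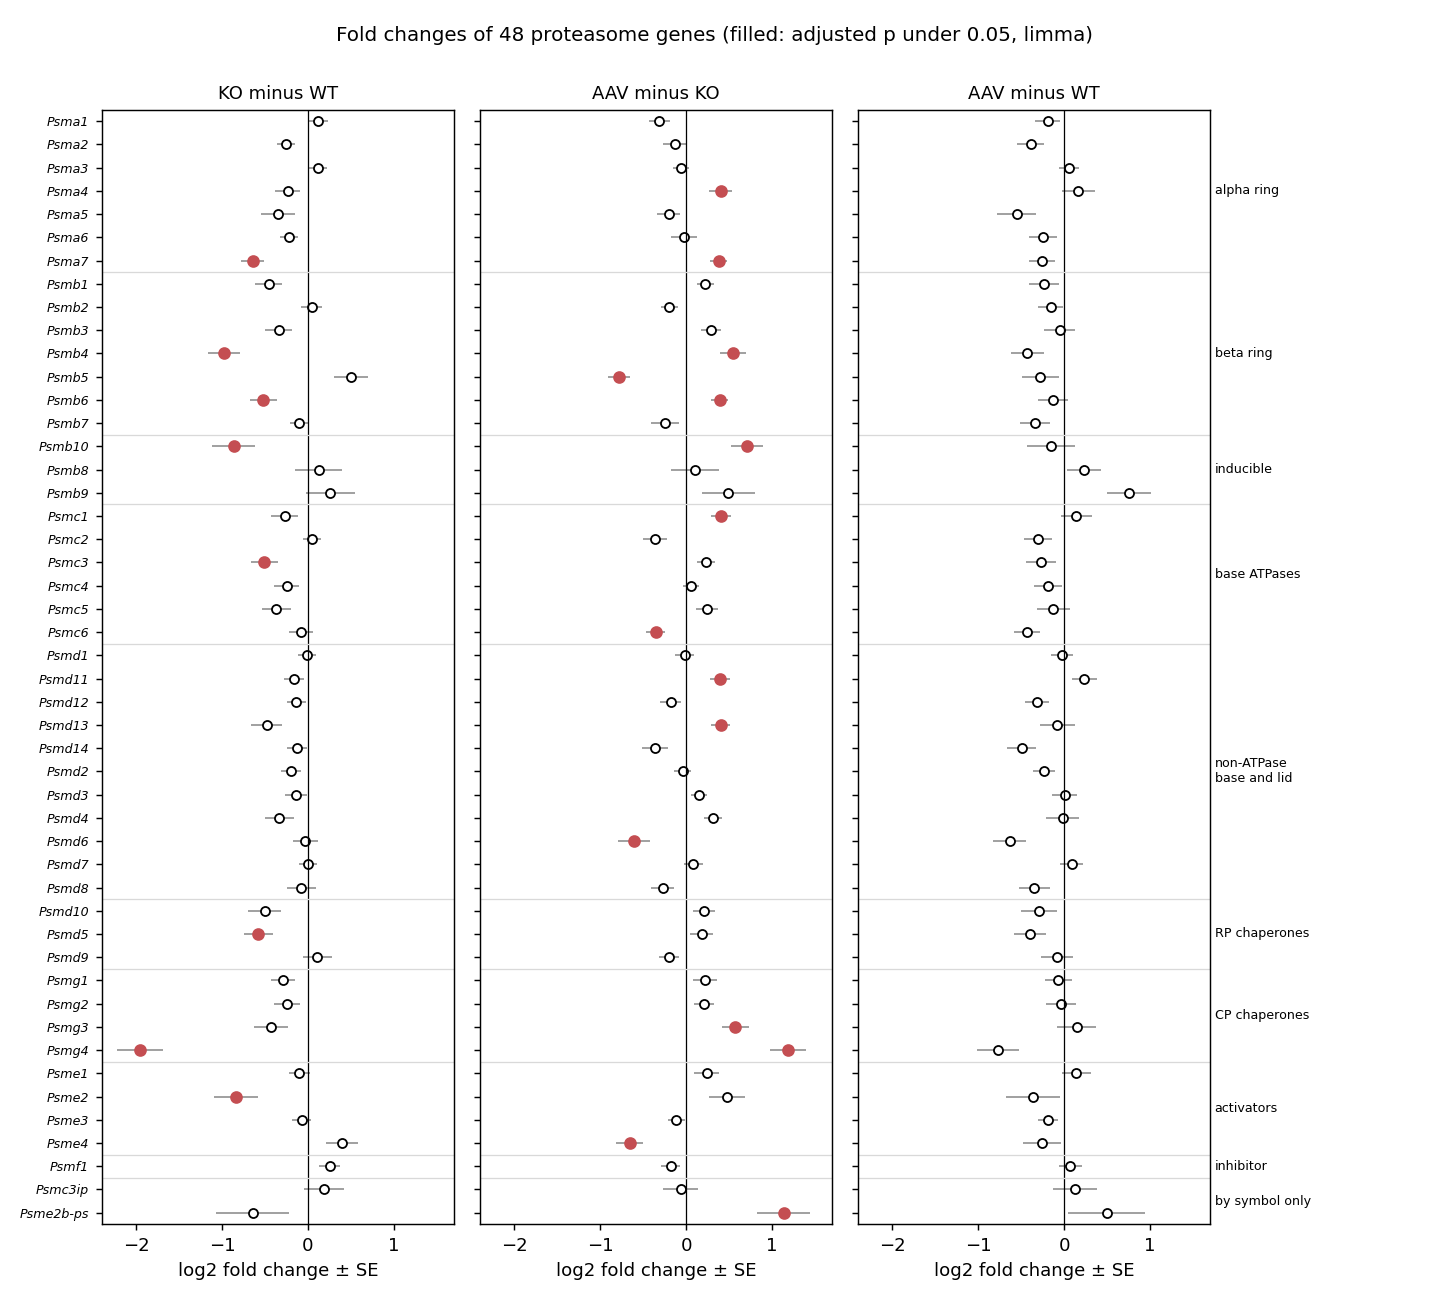
Log2 fold change (x axis, ± SE) of each of the 48 genes, by role, for KO minus WT, AAV minus KO and AAV minus WT; filled points passed an adjusted p of 0.05 (limma), RP and CP stand for regulatory and core particle. In the first panel the 8 filled points lie left of 0, and in the second 11 lie right and 4 left of it.

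Between the libraries labelled AAV and WT, 0 of the 48 members were called by limma, where 1.29% of all genes were, and 0.951% were called with a change of 1 or more on the log2 scale. At an unadjusted p under 0.05 there were 9 members (18.75%) and 18.2% of all genes. DESeq2 on the recovered reads called 1 member, Psmg4, and edgeR called 0. The median log2 fold change was -0.17 over the members, 35 of them below 0, and -0.03 over all genes. The members' median was -0.066 without WT animal 2, -0.27 without WT animal 3 and -0.069 with the gene length trend removed. All genes were then at -0.03, -0.02 and -0.02. The groups did not overlap for 6 members (12.5%) and for 11.7% of all genes. These were Psmc6, Psmd6, Psmd12, Psmd14 and Psme3, lower in AAV, and Psmb9, higher in AAV. A gene that misses the threshold here is not shown to be equal in both groups.

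**Figure D2:**
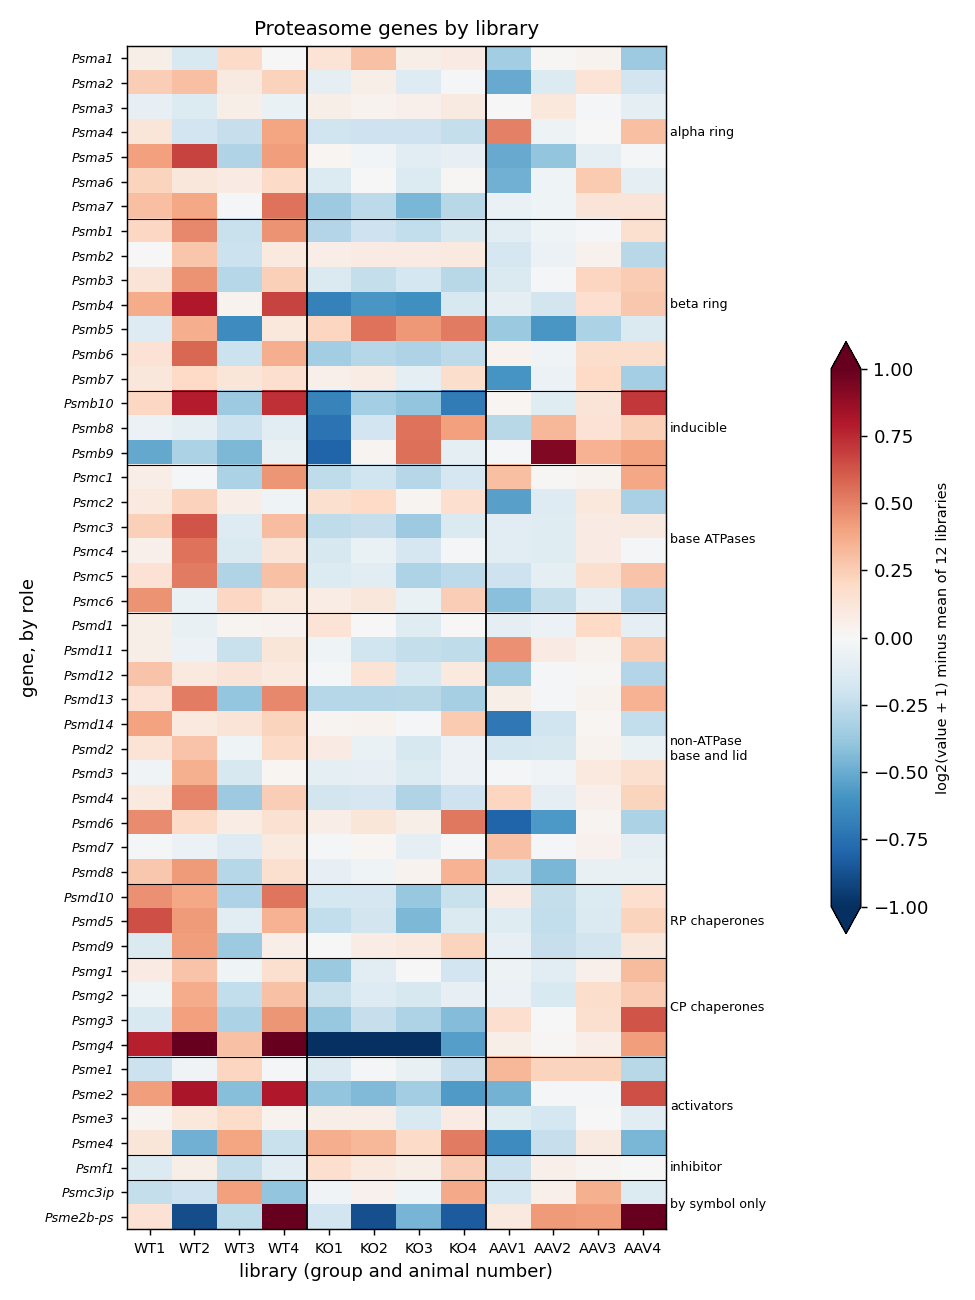
Level of each gene (rows, by role) in each library (columns), as log2(value + 1) minus the gene's mean over the 12 libraries; colours end at -1 and 1. The row of Psmg4 is lowest in KO animals 1 to 3, the row of Psmb5 is highest in KO animals 2 and 4, and WT animal 3 is paler or bluer than the other WT libraries in most rows.

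Among the alpha ring subunits, which form the gated ends of the barrel, Psma7 was the one called in KO against WT. It lies at chr2:180036374-180042433 on the minus strand (GRCm38). It was at 5527, 5875, 4427 and 6555 in WT animals 1 to 4, at 3499.6, 3749.9, 3273 and 3707 in KO and at 4290.4, 4364, 4917 and 4919 in AAV. All 4 KO libraries were below every WT and every AAV library, and AAV lay in the lower part of the WT range and just below it. Psma7 fell by 0.64 ± 0.14 (SE) on the log2 scale from WT to KO (adjusted p = 0.00919, limma). From KO to AAV it rose by 0.38 ± 0.10 (adjusted p = 0.0234). Psma4 also rose from KO to AAV, by 0.40 ± 0.13 (adjusted p = 0.0466). Its values were 2552, 2059, 2005 and 3083 in WT, 2045, 2035, 2037 and 1987 in KO and 3323, 2268, 2345 and 2899.9 in AAV, so the KO libraries were close together near the lowest WT library and below every AAV library. Psma4 shares 96.8% of its bases over 67.2% of its length with the processed pseudogene Gm6542, so part of its reads is uncertain. The remaining 5 alpha subunits were not called by limma, with log2 fold changes from -0.35 for Psma5 to 0.12 for Psma3 in KO against WT and from -0.31 for Psma1 to -0.02 for Psma6 in AAV against KO. Among these Psma2 and Psma6 were lower in all KO libraries than in any WT library, by 0.26 and 0.22, and Psma2 was called by DESeq2 (adjusted p = 0.0297). The Psma7 fall was called under each of the 16 alternatives tried, whereas its rise held under 10 and that of Psma4 under 6.

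In the beta rings, Psmb4 showed the largest fall of the group. This subunit has no cutting site and its tail reaches across to the opposite ring. The gene lies at chr3:94884093-94886961 on the minus strand. It was at 5702, 7654, 4511 and 7021 in WT, at 2755, 2941, 2877 and 3939 in KO and at 4122, 3872, 4957 and 5296 in AAV. The KO libraries all lay below WT, and KO animal 4, at 3939, was above the lowest AAV library. The fall from WT to KO was -0.98 ± 0.18 on the log2 scale (adjusted p = 0.00614, limma) and the rise from KO to AAV 0.55 ± 0.15 (adjusted p = 0.0254). Without KO animal 4 the rise was 0.66.

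Of the constitutive cutting subunits, Psmb6 was called lower in KO than in WT and higher in AAV than in KO, Psmb5 was called lower in AAV than in KO, and Psmb7 was not called in either comparison. Psmb6, the caspase-like subunit at chr11:70525367-70527858 on the plus strand, was at 6471, 8689, 5039 and 7509.6 in WT, at 4589, 4794, 4711 and 4878 in KO and at 5980.1, 5709.5, 6599 and 6589 in AAV. Its KO libraries were close together and below every other library. The change was -0.52 ± 0.16 from WT to KO (adjusted p = 0.0381, limma) and 0.39 ± 0.10 from KO to AAV (adjusted p = 0.0183). The pseudogene Psmb6-ps2 is 92.1% identical to it over most of its length. Psmb5, the chymotrypsin-like subunit at chr14:54614119-54618022 on the minus strand, was at 588, 828, 416 and 693 in WT, at 748, 939.8, 869 and 926 in KO and at 498, 431, 518 and 584 in AAV. Every AAV library was below every KO library, while the WT libraries overlapped both groups. Psmb5 fell by 0.78 ± 0.13 on the log2 scale from KO to AAV (adjusted p = 0.00497, limma), a call made under each of the 16 alternatives. Its difference between KO and WT was 0.50 ± 0.20 (adjusted p = 0.0852) and was called, as higher in KO, once the gene length trend was removed (0.87, adjusted p = 0.014) and without WT animal 2 (0.65). The processed pseudogenes Gm3375 and Psmb5-ps match Psmb5 at 98.9% and 92.0% identity over 88.5% and 90.1% of its length, and the microRNA gene Mir686 overlaps it, so the reads of Psmb5 are uncertain to that extent. Psmb7, the trypsin-like subunit, was at 6077, 6478, 6109.9 and 6309 in WT, at 5834, 5913, 5248 and 6357 in KO and at 3746, 5419.5, 6453 and 4438 in AAV. The AAV libraries of Psmb7 were the most spread, and its log2 fold change was -0.10 ± 0.10 in KO against WT and -0.25 ± 0.16 in AAV against KO. The other beta subunits, Psmb1, Psmb2 and Psmb3, were not called by limma, at -0.46, 0.04 and -0.34 in KO against WT, though Psmb1 (adjusted p = 0.0542) was called lower by DESeq2 and edgeR (adjusted p = 0.0198 and 0.0484).

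The ratio of Psmb5 to Psmb6 was chosen after the values were seen and is therefore given as a description. Per kb, Psmb5 was at 18.9%, 19.8%, 17.2% and 19.2% of Psmb6 in WT, at 33.9%, 40.8%, 38.4% and 39.5% in KO and at 17.3%, 15.7%, 16.4% and 18.4% in AAV. All 4 KO libraries stood apart from all 8 others, with no overlap.

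**Figure D3:**
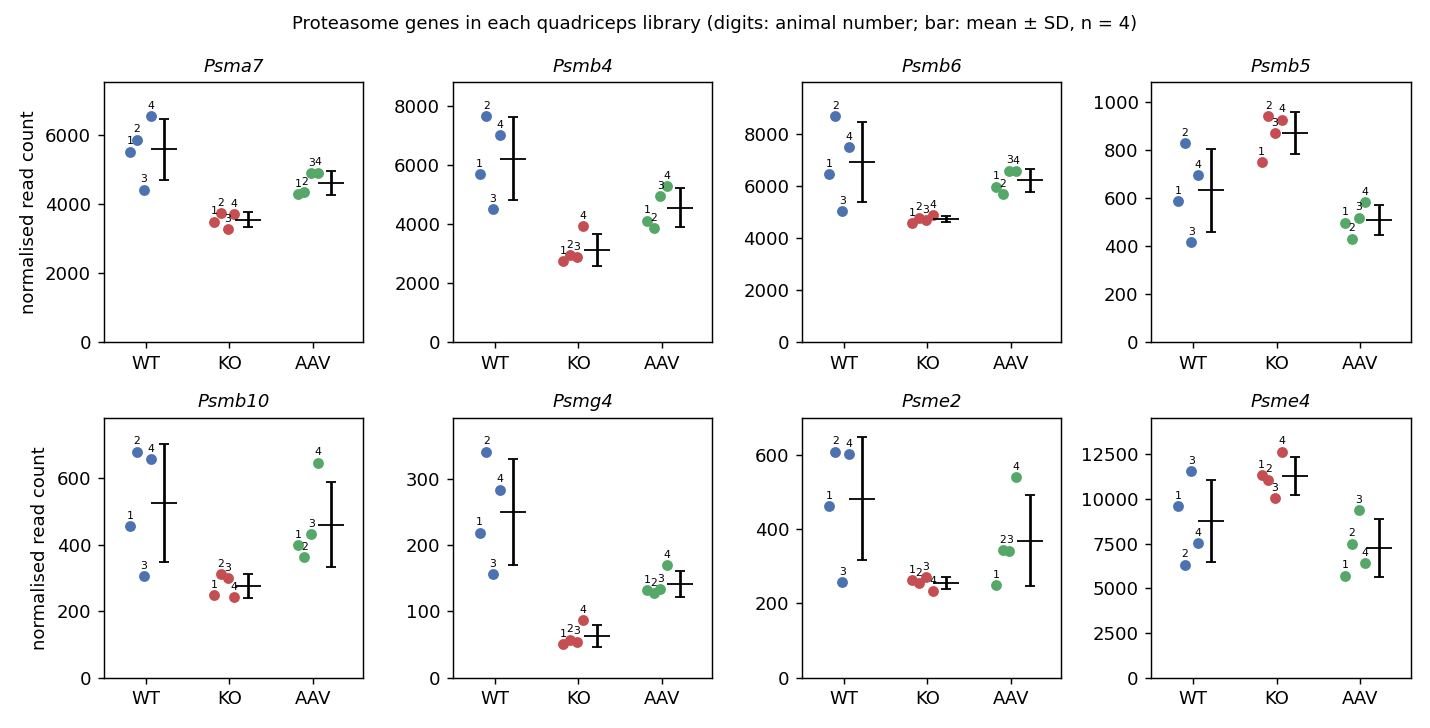
Normalised read count (y axis) of 8 genes in each library of the 3 labelled groups (x axis); digits are animal numbers and bars give mean ± SD (n = 4). Psma7, Psmb4, Psmb6 and Psmg4 are lowest in KO, Psmb5 is lower in AAV than in KO, and WT animal 3 is the lowest WT library in 7 of the 8 panels and the highest for Psme4.

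The inducible subunits, which the immunoproteasome of leukocytes uses in place of the constitutive ones, did not move as a set. Psmb10 fell in KO and rose in AAV. It was at 456, 680.3, 307 and 657 in WT, at 248, 311, 300.2 and 243 in KO and at 399.7, 363, 432 and 647 in AAV. WT animal 3 fell within the KO range, and the AAV libraries were all above KO. Its change was -0.87 ± 0.25 from WT to KO (adjusted p = 0.0279, limma) and 0.71 ± 0.19 from KO to AAV (adjusted p = 0.0228). Psmb8 was at 101, 98.9, 90.9 and 97.5 in WT, at 62.8, 92.4, 154 and 141 in KO and at 86.8, 133, 117 and 125 in AAV. The WT libraries were close together and the KO libraries were spread on both sides of them, with a log2 fold change of 0.13 ± 0.27 (adjusted p = 0.747). Psmb9 was at 38.0, 43.6, 39.8 and 51.7 in WT, at 30.9, 55.6, 80.5 and 51.3 in KO and at 53.8, 105, 69.7 and 72.5 in AAV. All AAV libraries of Psmb9 lay above all WT libraries, by 0.75 ± 0.25 on the log2 scale, but the adjusted p was 0.165 and the difference was not called. Psmb9 overlaps Tap1 on the opposite strand, and whether the counting used strand is not given in the sources used here.

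Set against the constitutive partner per kb, Psmb8 was at 2.23% to 4.73% of Psmb5 in KO, at 3.17% to 5.81% in WT and at 4.64% to 8.20% in AAV. For Psmb9 and Psmb6 the ratio was 0.345% to 0.874% in KO, 0.257% to 0.404% in WT and 0.460% to 0.938% in AAV, so that every AAV library was above every WT library. Psmb10 stood at 9.56% of Psmb7 on average in KO, where the highest library was at 11.5%, at 10.1% to 21.1% in WT and at 13.4% to 29.3% in AAV. The 3 inducible subunits summed to 3.46% to 4.86% of the 3 constitutive ones in KO, 4.41% to 6.47% in WT and 5.13% to 7.98% in AAV. In all 12 libraries, then, the constitutive transcripts made up most of the catalytic subunit transcripts.

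**Figure D4:**
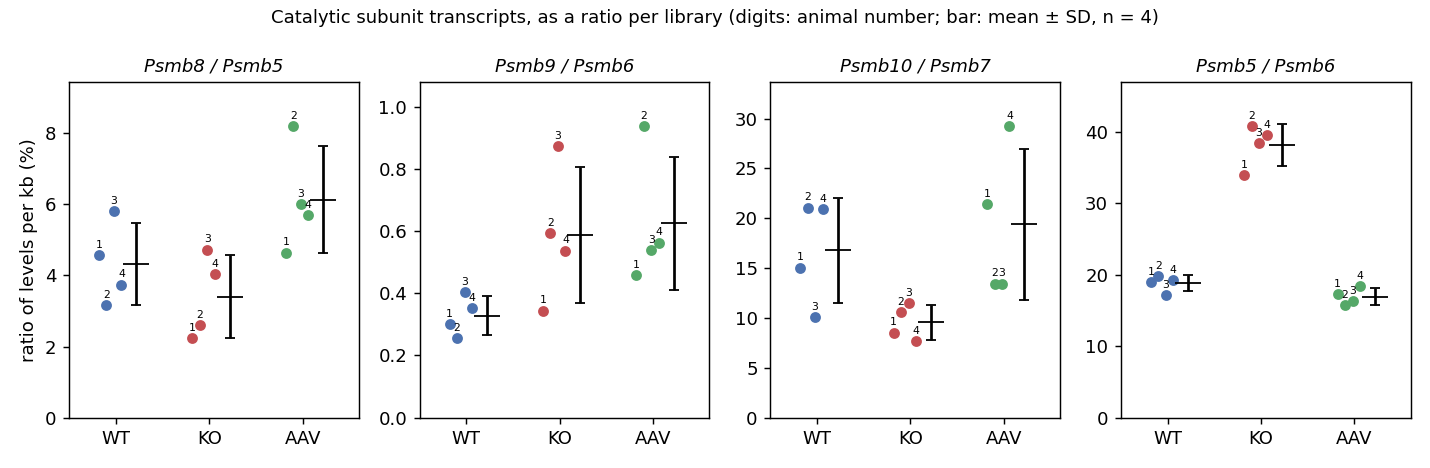
Ratio of transcript levels per kb (y axis, percent) for 3 inducible subunits over their constitutive partners and for Psmb5 over Psmb6, in each library of the 3 labelled groups; digits are animal numbers and bars give mean ± SD (n = 4). The ratio of Psmb5 to Psmb6 is 33.9% or more in KO and 19.8% or less in the other libraries, and the other 3 ratios overlap between KO and WT.

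Some leukocyte markers were also lower in KO. Of 9 genes listed for macrophages and leukocytes, 7 were in the tables, and 3 of them were lower in KO than in WT, Cd68 by 3.35 ± 0.60 (SE), Lyz2 by 1.76 ± 0.36 and Cd14 by 2.01 ± 0.43 on the log2 scale, with adjusted p-values of 0.00513, 0.00812 and 0.00971 (limma). In AAV against KO limma called 0 of the 6 tested, 2 had an unadjusted p under 0.05, Cd68 and Cd14, and DESeq2 and edgeR each called 1, Cd68, as higher. The summed level of the 7 was 963 to 3341 in WT, 485 to 916 in KO and 491 to 2701 in AAV, with the lowest WT value in animal 3 and the highest AAV value in animal 4, which were also the lowest WT library and the highest AAV library for Psmb10. Ptprc, the pan-leukocyte marker, was at 20.3 to 115 over the 12 libraries and Cd3e, a T cell marker, at 0 to 22.3. The part of these cells in the result was not tested. Among 11 antigen processing genes that are regulated together with the inducible subunits, the peptide transporter gene Tap2 rose from KO to AAV by 0.88 ± 0.22 (adjusted p = 0.0184) and the trimming peptidase gene Erap1 fell by 0.91 ± 0.14 (adjusted p = 0.00404).

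Of the 6 ATPases of the base, which unfold the substrate and open the gate, Psmc3 was called lower in KO. It was at 10262, 13414, 7934 and 10748 in WT, at 7286, 7414, 6758 and 7851 in KO and at 8041, 7999.9, 9183 and 9266 in AAV. No KO library reached the lowest WT value, and the AAV libraries were above KO but below WT animals 1, 2 and 4. The change was -0.51 ± 0.16 (adjusted p = 0.0378, limma) in KO against WT and 0.23 ± 0.11 (adjusted p = 0.122) in AAV against KO. Slc39a13 overlaps Psmc3 on the opposite strand. Psmc1, whose tail opens the gate of the alpha ring, was at 5712, 5377, 4367 and 7404 in WT, at 4566, 4754, 4459.5 and 4849 in KO and at 6693, 5495, 5578 and 7116 in AAV, and rose by 0.41 ± 0.11 from KO to AAV (adjusted p = 0.0276). All its AAV libraries exceeded the KO libraries, and WT animal 3 was the lowest of the 12. A pseudogene, AC110212.1, matches Psmc1 at 95.6% over 82.1% of its length. Psmc6 went the other way. It was at 4062, 2838, 3428 and 3199 in WT, at 3129, 3216, 2843 and 3534 in KO and at 2226, 2523, 2779 and 2423 in AAV, where each library was below all WT and KO libraries. Psmc6 fell by 0.35 ± 0.11 from KO to AAV (adjusted p = 0.039), and the call was lost with scaling by total reads (adjusted p = 0.196). Psmc2, Psmc4 and Psmc5 were not called, with changes of -0.36, 0.06 and 0.24 from KO to AAV.

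Between WT and KO, 0 of the 11 further subunits of the base and lid were called by limma, and their log2 fold changes ran from -0.48 for Psmd13 to 0.0013 for Psmd7, 10 of 11 below 0. Over all genes 27.6% were called and 48.3% were below 0. DESeq2 called Psmd13 as lower in KO (adjusted p = 0.0322), edgeR called 0 of them, and 1 of 11, Psmd13, had an unadjusted p under 0.05. Of the 11, 3 were called from KO to AAV, where 26.3% of all genes were. Psmd11, a lid subunit that braces the regulatory particle against the core, was at 4666, 4295, 3826 and 4876 in WT, at 4332, 3906, 3796 and 3753 in KO and at 6136, 4750.03, 4594 and 5349 in AAV. It rose by 0.39 ± 0.12 (adjusted p = 0.035) and was higher in each AAV library than in any KO library. The copies A730017L22Rik and Gm14048 share 97.9% and 98.0% of bases with Psmd11 over 52.7% and 78.0% of its length. Psmd13, another lid subunit, was at 3587, 4617, 2487 and 4541 in WT, at 2657, 2667, 2682 and 2584 in KO and at 3375, 3208, 3325 and 4142 in AAV. Its KO libraries were close together and below all AAV libraries, with a rise of 0.40 ± 0.11 (adjusted p = 0.023). Sirt3 overlaps it on the opposite strand. Psmd6, also of the lid, fell from KO to AAV by 0.61 ± 0.18 (adjusted p = 0.035). Its values were 4588, 3772, 3478 and 3669.96 in WT, 3463, 3598, 3433 and 4762 in KO and 1898, 2224, 3364 and 2658 in AAV, where KO animal 4 stood well above the others and every AAV library was below every WT and KO library. Psmd14, the deubiquitinase of the lid, did not pass in AAV against KO (-0.37 ± 0.15, adjusted p = 0.102), nor did the ubiquitin receptor Psmd4 (0.32 ± 0.11, adjusted p = 0.0528), which DESeq2 called (adjusted p = 0.0199).

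The assembly chaperones held the largest change of all members. Psmg4 pairs with Psmg3 and helps to build the alpha ring, and its gene lies at chr13:34162964-34178173 on the plus strand. It was at 219, 341, 156 and 284 in WT animals 1 to 4, at 51.2, 57.3, 54.4 and 86.7 in KO and at 132, 128, 133 and 169.8 in AAV. The 3 groups formed an order, with KO below every AAV library and AAV below WT except for WT animal 3, which lay between AAV animals 3 and 4. Psmg4 was 3.88-fold lower in KO than in WT on the log2(value + 1) scale (-1.96 ± 0.27, adjusted p = 0.00164, limma) and 2.27-fold higher in AAV than in KO (1.18 ± 0.20, adjusted p = 0.00585). Both calls were made under each of the 16 alternatives. The AAV libraries remained 0.77 ± 0.25 below WT on the log2 scale, which limma did not call (adjusted p = 0.152), whereas DESeq2 did (adjusted p = 0.0466).

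Psmg3, its partner, was at 219, 323, 195 and 332 in WT, at 187, 208, 197 and 180.4 in KO and at 274, 244, 272 and 377 in AAV. It rose by 0.57 ± 0.16 from KO to AAV (adjusted p = 0.0249), with no overlap, and without AAV animal 4 by 0.44. From WT to KO its change was -0.43 ± 0.20 and was not called (adjusted p = 0.123). The long noncoding gene Gm26938 overlaps it on the same strand. The other pair of this kind, Psmg1 and Psmg2, was not called, at -0.29 and -0.24 in KO against WT. Of the chaperones of the regulatory particle, Psmd5, which holds ATPases before they join the base, was at 862, 739, 509 and 699 in WT, at 465, 486, 404 and 499 in KO and at 507, 463, 497 and 642 in AAV. All KO libraries were below WT, and AAV overlapped both, with changes of -0.58 ± 0.17 (adjusted p = 0.0311) and 0.18 ± 0.13 (adjusted p = 0.326). Psmd10 and Psmd9 were not called by limma, at -0.50 and 0.11 in KO against WT, and DESeq2 called Psmd10 lower (adjusted p = 0.0301).

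Of the activators, which cap the core in place of the regulatory particle, Psme2 and Psme4 were called, once each. Psme2 encodes a subunit of the interferon-responsive cap that works with the immunoproteasome. It was at 462, 609, 257 and 602 in WT, at 263, 254, 271 and 233 in KO and at 249, 343, 342 and 541 in AAV. WT animal 3 lay inside the KO range, as did AAV animal 1, and AAV animal 4 was far above the rest of its group. Psme2 changed by -0.84 ± 0.25 from WT to KO (adjusted p = 0.0345, limma) and by 0.48 ± 0.21 from KO to AAV (adjusted p = 0.113). Psme2b-ps, called Psme2b in the annotation, is 99.4% identical to Psme2 over 82.5% of the latter's length, so the split of reads between them is uncertain. At 21.3, 12.8, 17.4 and 13.3 in KO and 26.2, 33.2, 33.1 and 58.7 in AAV, it rose by 1.14 ± 0.31 (adjusted p = 0.0254), and its WT values of 27.1, 12.8, 20.3 and 57.5 overlapped both groups. Psme1, the partner of Psme2, was not called in any comparison, at -0.10 ± 0.12 in KO against WT.

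Psme4, an activator linked to the turnover of acetylated histones, was called lower in AAV than in KO. It was at 9583, 6321, 11565 and 7544 in WT, at 11350.00, 11075, 10035 and 12641 in KO and at 5707, 7495, 9390.2 and 6400.1 in AAV. Every AAV library was below every KO library, and WT overlapped both. It fell by 0.66 ± 0.16 from KO to AAV (adjusted p = 0.0171, limma). The difference of 0.40 ± 0.18 between KO and WT was not called (adjusted p = 0.128), though without WT animal 3 it was, at 0.54. Psmf1, which binds the core particle and was named as its inhibitor, was at 444, 508, 413 and 454 in WT, at 551, 524, 508 and 580.03 in KO and at 422, 505, 498 and 486 in AAV. For Psmf1 the KO libraries did not overlap AAV and overlapped WT, but neither 0.25 ± 0.12 in KO against WT nor -0.18 ± 0.11 in AAV against KO was called (adjusted p = 0.137 and 0.239). Psme3 and Psmc3ip were called in no comparison.

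The stability of the calls differed among members. From WT to KO, 3 of the 8 calls, those of Psma7, Psmb4 and Psmg4, were made under each of the 16 alternatives. The other 5, Psmb6, Psmb10, Psmc3, Psmd5 and Psme2, were each lost when any animal other than WT animal 3 was left out. Of these, 4 were also lost with the gene length trend removed, among them Psmb6 at -0.29 (adjusted p = 0.209, limma), and Psmd5 was not. Scaling by total reads ended the calls of Psmb6, Psmc3 and Psme2. Without WT animal 3, 21 members were called, 20 lower and 1 higher, where the same fit called 48.4% of all genes. From KO to AAV, 2 of the 15 calls held under every alternative, the rise of Psmg4 and the fall of Psmb5. Removing the length trend ended the calls of Psma4, Psmb4, Psmb6, Psmc1 and Psme2b-ps, and scaling by total reads those of Psmc6 and Psmd6. With all 12 animals in one fit 5 calls were kept, those of Psmb5, Psmd6, Psmd11, Psme4 and Psmg4. Without WT animal 2, which had the high Gaa level of the libraries labelled KO, 4 members were called in KO against WT, where 17.9% of all genes were. These were Psma7, Psmb4 and Psmg4, lower, and Psmb5, higher. Without AAV animal 4, the other library with such a level, 13 were called in AAV against KO, where 22.1% of all genes were, and 12 of the 15 calls were kept, those lost being Psma4, Psmc6 and Psmd11. Without both animals, 0 members were called in AAV against WT by limma.

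Other proteins of the proteasome carry no Psm symbol, and 13 of the 14 listed were in the tables. In KO against WT, 5 were lower and 1 higher, where 15.3% and 12.3% of all genes were. Pomp, which matures the core particle together with the Psmg chaperones, was at 4863, 5861, 3182 and 5893 in WT, at 2565, 2547, 2704 and 2589.8 in KO and at 4193, 3569, 3774 and 5712 in AAV. KO was below all other libraries, by -0.89 ± 0.19 against WT (adjusted p = 0.0091, limma), and AAV was 0.70 ± 0.14 above KO (adjusted p = 0.00995). Sem1, a small lid subunit, was at 3434, 5317, 3279 and 4186 in WT, at 2442, 2569.8, 2899.8 and 2687 in KO and at 4199, 3605, 3952 and 3907 in AAV. Its change was -0.59 ± 0.16 from WT to KO (adjusted p = 0.0233) and 0.56 ± 0.10 from KO to AAV (adjusted p = 0.00616). Zfand2a, an arsenite-inducible protein of the regulatory particle, was 0.89 lower in KO (adjusted p = 0.0128) and Txnl1, a thioredoxin-like protein bound to the regulatory particle, 0.47 lower (adjusted p = 0.0143). From KO to AAV, 2 of the 13 rose and 4 fell, where 12.8% and 13.4% of all genes did, among them the deubiquitinase Usp14, at -0.55 ± 0.10 (adjusted p = 0.00714), and the ligase Ube3c, at -0.71 ± 0.17 (adjusted p = 0.0159).

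Genes that control transcription of the proteasome were not in one direction. Of 11 listed, 1 was lower and 3 were higher in KO, where 15.3% and 12.3% of all genes were. Nfe2l1, the factor that restores proteasome genes when the proteasome is inhibited, was at 36815, 42772, 38817 and 38769 in WT, at 27166, 28213, 25858 and 27059 in KO and at 32253, 32550.5, 28487 and 31143 in AAV. The 3 groups did not overlap, with KO lowest, and the difference from WT was -0.54 ± 0.12 (adjusted p = 0.00985, limma). That between AAV and KO was 0.20 ± 0.11 and was not called (adjusted p = 0.212). Ddi2, the protease that cuts and activates the Nfe2l1 protein, was at 2049.5, 1809, 1789.6 and 2074 in WT, at 4479, 3362, 2796 and 3045 in KO and at 2587, 2312, 2693 and 2449 in AAV. KO was highest in each case, by 0.80 ± 0.15 over WT (adjusted p = 0.00642). The NF-Y subunit genes Nfya and Nfyc were higher in KO by 0.55 and 0.35 (adjusted p = 0.0319 and 0.0458). From KO to AAV, 3 of the 11 fell, where 13.4% of all genes did, Ngly1, Nfe2l2 and Hsf1, by 0.99, 0.37 and 0.37 (adjusted p = 0.0106, 0.0454 and 0.0371). Ngly1 removes sugar chains from Nfe2l1 before its cleavage.

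Among 11 shuttle and extraction factors, which bring substrates to the proteasome, limma called 3, all higher, in KO against WT, DESeq2 called 4, of which 3 were higher, and edgeR called 2, both higher. In AAV against KO, 3 were lower and 0 higher by limma. Over all genes, limma called 15.3% lower and 12.3% higher in KO against WT, and 13.4% lower and 12.8% higher in AAV against KO. DESeq2 called 32.7% and 32.1% of all genes in these 2 comparisons and edgeR 26.8% and 27.0%, both directions together. DESeq2 called 1 of the 11 higher in AAV, Nsfl1c, edgeR called 0, and at an unadjusted p under 0.05 limma gave the same gene. Rad23b, a shuttle that binds ubiquitin chains and the proteasome, was at 3237, 2328, 3761 and 2322 in WT, at 5495, 4709, 4928 and 5399.8 in KO and at 2009, 2686, 2751 and 1821 in AAV. KO was above all other libraries, by 0.85 ± 0.17 over WT (adjusted p = 0.00755, limma), and AAV was 1.17 ± 0.15 lower than KO (adjusted p = 0.00169). The shuttles Ubqln2 and Ubqln1 were 0.74 and 0.39 higher in KO (adjusted p = 0.00936 and 0.0476), and from KO to AAV Ubqln1 and Faf1 fell by 0.36 and 0.54 (adjusted p = 0.034 and 0.0309).

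Of the genes for ubiquitin and its activating enzymes, the polyubiquitin gene Ubb was not called, at 0.19 in KO against WT and 0.05 in AAV against KO. Uba6, an activating enzyme, was lower in AAV than in KO by 1.05 ± 0.17 (adjusted p = 0.00449, limma). In AAV against WT, 0 of the 52 genes of the 5 pathway lists were called by limma, 10 had an unadjusted p under 0.05, DESeq2 called 7 and edgeR 0. Over all genes these shares were 1.29%, 18.2%, 6.26% and 1.09%.

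Fibre type moved with these groups as well. The 4 slow fibre markers, Myh7, Tnni1, Tnnt1 and Myl3, were all lower in KO than in WT and all higher in AAV than in KO, with summed levels of 1144 to 3102 in WT, 93.5 to 114 in KO and 1269 to 13364 in AAV. Of the 9 markers of skeletal muscle fibres, the fast myosin genes Myh1 and Myh2 fell in KO and rose in AAV, and Myh4 rose in KO. The summed level of 5 endothelial markers was 1534 to 4604 in WT and 3656 to 4874 in KO, with Pecam1 and Cdh5 called higher in KO. Of 2 satellite cell markers, Pax7 was higher in AAV than in KO, by 0.68 ± 0.19 (adjusted p = 0.0303), and of 2 red blood cell markers Hba-a1 was, by 2.16 ± 0.61 (adjusted p = 0.0296). Summed levels in WT, KO and AAV overlapped for 5 fibroblast markers (10007 to 17438, 10510 to 15517 and 8148 to 19572), 4 adipocyte markers (43.9 to 564, 138 to 2300.4 and 197 to 459) and 3 Schwann cell markers (518 to 1321, 933 to 1549.8 and 844 to 2372). The part of fibre type and of these cells in the proteasome values was not tested.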

How the data were processed

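RNA of the quadriceps of 12 mice was analysed. The deposited signal values are gene counts from HTSeq after trimming with TrimGalore and mapping to mouse GRCm38 with STAR; the authors left out genes under 10 reads in all libraries and divided the counts of a library by its DESeq2 size factor. Per the labels' processing notes these were Trim Galore 0.4.1, HTSeq 0.6.1 and DESeq2 1.16.1. The authors' deposited columns of log2 fold changes, of a test score and of p-values hold their own comparisons and were not used. Each value was a whole multiple of 1 step per library, which gave back whole reads for 100% of the values (tolerance 0.01). The 2 tables joined on 15344 genes, the KO columns differed between them by 0, and 0 sample columns were left out. Coordinates, gene types and exon lengths came from GENCODE M21 on GRCm38 (15186 identifiers found) and start-site windows from RefSeq on GRCm38.p6.

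The test was limma with a trend on log2(value + 1), run on genes that reached 10 in 1 or more of the 8 libraries of a comparison. Adjustment was by Benjamini-Hochberg over all of them, and called means an adjusted p below 0.05. The groups were those of the labels, and 16 alternatives per comparison (17 in AAV against WT) concerned the test (DESeq2 and edgeR on recovered reads), scaling by total reads, the filter, a pseudocount of 0.1, all 12 animals in one fit, the replicate number as a block, a gene length trend, and animals left out. Fold changes understate the change of low genes. The members, role lists and pathway lists were chosen with earlier results of these data known, so no test over a list is given. Values in every library are given for members called in a comparison (up to 4 per role and comparison), for the member with the lowest p of each role, for the catalytic subunits and for Gaa. In the pathway lists, up to 4 called genes per list and comparison are named, apart from some that are not reported here; Psmd14, Psmd4, Ubb, Psmc6 in its alternatives, and the pair Psmb5 and Psmb6 were set out after their values were seen.

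The scripts were tested on simulated data. Of 200 genes given a change of 1 on the log2 scale, limma recovered 47% in KO against WT. It recovered 68% in AAV against KO and 12.5% in AAV against WT, and these shares hold for that simulation only. Near-identical copies were matched with BLAST at 90% identity over 50% of the length. Total reads of 22122233 to 47379737 per library limit precision for low genes. Tools were BLAST 2.17.0, limma 3.58.1, DESeq2 1.42.0 and edgeR 4.0.16 (R 4.3.3), and matplotlib 3.10.9, scipy 1.17.1, numpy 2.4.6 and pandas 2.3.3 (Python 3.11.15).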

Additional observations from a re-analysis of the deposited data

Results flagged for a closer look

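Within groups of 4 libraries, 69 sets of values (22 named members and Gaa in 3 groups) were searched for a library far from the other 3 by Dixon's criterion, which chance passes in about 1 of 20 sets, and 5 passed. Psmb4 was at 3939 in KO animal 4, where the other KO libraries lay between 2755 and 2941. Psmd6 was at 4762 in the same library and between 3433 and 3599 in the other 3. Psmg4 was at 169.8 in AAV animal 4 and between 128 and 133 in AAV animals 1 to 3. Gaa was at 14640.2 in WT animal 2, where the others lay between 324 and 460.3, and at 9854 in AAV animal 4, where the others lay between 499.6 and 947.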

How the results depend on the processing

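Members called in KO against WT numbered 8 in the main analysis (27.6% of all genes were called) and 5 with scaling by total reads (26.5%). With animals left out in turn they ranged from 3 to 21, and the share of all genes from 15.9% to 48.4%. Leaving out WT animal 1 or 4 or any KO animal gave 3, WT animal 2 gave 4 and WT animal 3 gave 21. The median over the members moved from -0.21 to -0.0439 with the gene length trend removed. In AAV against KO, 15 members (26.3% of all genes) became 5 with all 12 animals in one fit (17.7%), and 4 to 18 with animals left out (13.2% to 34.1%). It was 4 without KO animal 1, 2 or 4 and 8 without KO animal 3. Scaling by total reads moved the median over the members from 0.12 to 0.29 and that over all genes from 0.04 to 0.21, so 0.08 of the members' value was beyond the shift of all genes. In AAV against WT the same scaling gave -0.0206 in place of -0.17, with all genes at 0.12 in place of -0.03, and 1 member was called by DESeq2 and without WT animal 3, against 0 otherwise. The causes were not tested. Whole reads were recovered for every value, and DESeq2 and edgeR on them called 12 and 9 members in KO against WT (32.7% and 26.8% of all genes) and 16 and 14 in AAV against KO (32.1% and 27.0%).

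The labels name no pairing of same-numbered animals across groups. The correlation of same-numbered deviations ran from -0.11 to 0.03 in KO against WT and from -0.18 to 0.06 in AAV against KO. In AAV against WT it ran from -0.35 to 0.55, so these values do not settle whether animals were paired. With the replicate block, 5 members were called in KO against WT (20.6% of all genes), 3 in AAV against KO (14.6%) and 0 in AAV against WT (0.884%). It ended the calls of Psmb6, Psmc3 and Psme2 in KO against WT and left those of Psmb4, Psmb5 and Psmg4 in AAV against KO.

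Signs turned only for differences that limma did not call. With scaling by total reads, AAV against WT gave 0.0223 for Psmb6 and 0.0702 for Psmd13. With the length trend removed it gave 0.0081 for Psmb6 and 0.0039 for Psmb10, and KO against WT gave 0.10 for Psmd6. With animals left out in turn, KO against WT ranged from -0.0540 to 0.374 for Psmb8, from -0.161 to 0.0117 for Psmc6 and from -0.141 to 0.0545 for Psmd6, AAV against KO from -0.146 to 0.283 for Psmb8, and AAV against WT from -0.272 to 0.0249 for Psmd13 and from -0.512 to 1.79 for Gaa. Without WT animal 2 and AAV animal 4 together, Psme2b-ps was at -0.0488 in AAV against WT. For Gaa in AAV against WT, DESeq2 gave -0.39 and edgeR -0.34. Of the other values for the named genes under an alternative, 960 kept direction and side of the threshold, 136 lost a call and 11 gained one.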

Other observations

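By role, the median log2 fold change from WT to KO was -0.24 for the alpha ring, -0.34 for the beta ring, -0.26 for the base ATPases, -0.14 for the further base and lid subunits, -0.50 for the chaperones of the regulatory particle, -0.36 for those of the core particle, -0.09 for the activators and 0.13 for the inducible subunits, and Psmf1, the inhibitor, was at 0.25. From KO to AAV these values were -0.06, 0.22, 0.15, -0.02, 0.18, 0.40, 0.06, 0.49 and -0.18. The members together took 0.350% to 0.499% of all normalised reads in the libraries labelled WT, 0.368% or more in KO, where no library reached the lowest AAV library, and 0.405% to 0.520% in AAV. These are descriptions without a test.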
